A study of Mus musculus with 45 samples.

Results

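DNA copy number of mouse chromosome 12 was measured by array comparative genomic hybridization (CGH) in mammary tumors from 8 genetically engineered mouse models. Of the 42235 array probes on the autosomes and chromosome X, 1504 lie on chromosome 12 in the mm8 build. The probes of 4 genes (6 probes) were set aside by the rule that chose the members, which left 1498 probes between positions 3238250 and 119905084. They carry 720 different names, of which 456 matched a RefSeq symbol, and 248 probes are named by position alone. The median distance between neighbouring probes was 25.9 kb, and 8 gaps were longer than 1.5 Mb, the longest of them 7.47 Mb, so that a breakpoint inside a gap can be placed no better than the gap.

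The 45 arrays each compared the DNA of 1 invasive mammary tumor of a female mouse with reference DNA, which the labels call pooled mouse spleen and, in the characteristics of the same channel, normal mammary tissue. The models were BRCA1-/-;p53+/- (BRCA1fl/fl;p53+/- with MMTV-cre, 5 tumors), p53-/- (p53fl/fl with MMTV-cre, labelled as transplants, 6 tumors), C3(1)-Tag (the SV40 T/t-antigens under the C3(1) promoter, 5 tumors), MMTV-Her2/neu (5 tumors), MMTV-HRas (5 tumors), MMTV-PyMT (9 tumors), MMTV-Myc (5 tumors) and MMTV-Wnt1 (5 tumors). The MMTV promoter drives expression in mammary epithelium, so in the first pair of models Cre removes the floxed gene mainly there. There was no untreated group, and age and strain were not among the labels. A tumor also holds cells that carry no tumor genome, so a ratio near 0 does not separate a diploid tumor from one diluted by normal cells. The comparison asked in which models, and over which part of the chromosome, DNA was lost or gained.

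Loss of a chromosome arm or segment lowers the dose of the genes on it, gain raises it, and a breakpoint inside a chromosome separates stretches of different dose. Mouse chromosome 12 has its centromere at one end, so it has 1 long arm, and positions are counted from the centromeric end. It carries genes of DNA replication and repair, the hypoxia and estrogen receptor genes Hif1a and Esr2, a cluster of serpin protease inhibitor genes, and near its far end the imprinted Dlk1-Dio3 domain. BRCA1 works in the repair of double-strand breaks by homologous recombination, and p53 halts or kills cells with damaged DNA. Tumors without them are known for many structural chromosome changes.

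Values are log2 ratios, each array centred on its own autosomal median, with Cy3 over Cy5 read as tumor over reference. The labels give the dyes the other way round (tumor in Cy5). Among the authors' own intervals on chromosome 12 that span 3 or more probes and lie 0.2 or further from 0, 18 of 18 had the sign of Cy3 over Cy5, and this direction was chosen after those values were seen. With the dyes as labelled, every loss described here would be a gain and every gain a loss. Myc_04004021 correlated negatively with PyMT_11567 (r = -0.296 over all probes and -0.397 over autosomal probes), so the direction of these arrays relative to each other is not settled. With Myc_04004021 turned, the differences of BRCA1-/-;p53+/- in windows of the chromosome moved by at most 0.003, and with PyMT_11567, PyMT_11570 and Wnt_4679 turned instead by at most 0.011. The chromosome 12 means of these 4 arrays, from -0.072 to -0.025, leave little to turn. C3TAg_5RPT and H2N53 correlated at r = 0.96 over 1 Mb bins, and C3TAg_7RPT and H2N61 at r = 0.928, although each pair is labelled as 2 different models. Less closely, the nearest array of C3TAg_8_RPT was H2NA (r = 0.703) and that of P53_2979 was H2N1 (r = 0.734), also across models. Probe noise differed between arrays, with an SD of 0.158 to 0.475. The 5 BRCA1-/-;p53+/- arrays shared no slide and no scan day with another model, so model and batch cannot be told apart for them. Their Cy5 signal was 3.595 to 4.938 times the background, against 2.09 to 14.4 over all arrays. It was below that of every array of p53-/- (from 5.066), C3(1)-Tag (6.418), MMTV-Her2/neu (5.885), MMTV-Myc (5.86) and MMTV-Wnt1 (4.989). Only MMTV-HRas (from 3.358) and MMTV-PyMT (from 2.09) had arrays as low. The part of signal strength in the results was not tested.

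The 4 BRCA1-/-;p53+/- tumors with a loss on chromosome 12 had different profiles. Brca_14 and Brca_42 were low along the whole chromosome. Brcap53_682 was high in the proximal part and low beyond a breakpoint near Txndc1. Brca_54 was high in the proximal part and slightly below 0 beyond a break at a similar place. Brcap53_503 had almost no loss, and the proximal part of its chromosome was slightly higher than the rest.

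Segments of equal log2 ratio were found by circular binary segmentation, and a segment was called lost or gained at a mean of -0.2 or 0.2. In Brcap53_503, 0.3% of the probes lay in lost and 1.7% in gained segments. In Brcap53_682, 58.3% were lost and 16.5% gained. In Brca_14, 99.3% were lost, and in Brca_42, 98.0%. In Brca_54, 11.9% were lost and 40.4% gained. The lost probes of Brca_54 were 42 from 70051809 to 71024425 (mean -0.213) and 137 from 71904407 to 77668691 (mean -0.253), and most of its distal part, 597 probes at -0.171, stayed short of the threshold. Brca_54 stands just above the 10% of probes from which a tumor was counted as having a loss. With extreme single probes held within 3 SDs of their running median, it had 0% of its probes lost and 38.0% gained, and the count fell from 4 to 3 of the 5 tumors. In Brcap53_682 the first 364 probes had a mean of 0.195, just under the threshold, and with extreme probes held in 41.0% of its probes were gained.

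**Figure D1:**
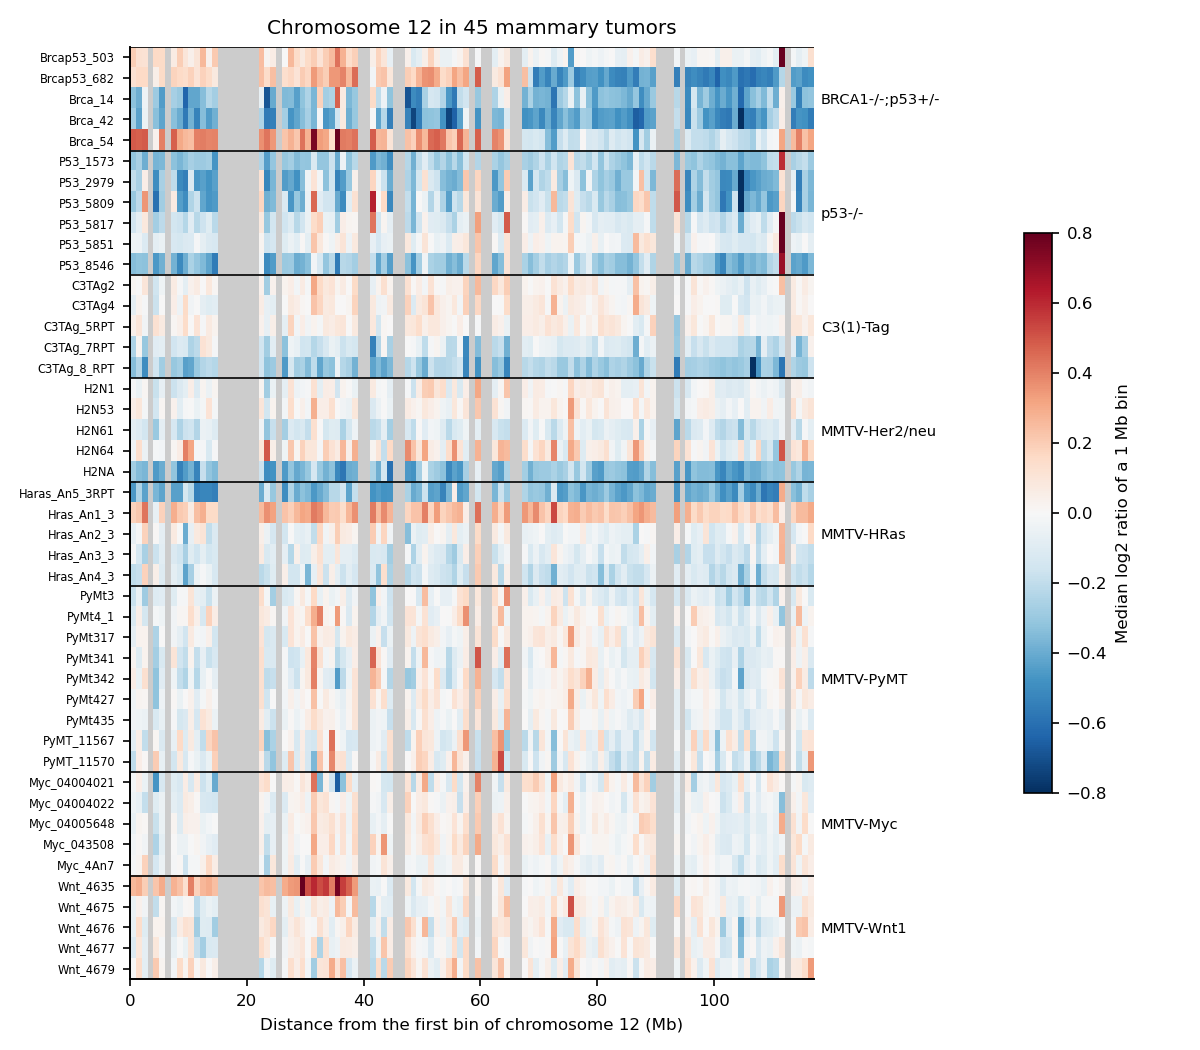
Median log2 ratio (colour, drawn to 0.8 in size) in 1 Mb bins along chromosome 12 (x axis, Mb from the first bin) for the 45 tumors (rows, grouped by model). Grey columns are bins with fewer than 3 probes. Rows that are blue along most or all of the chromosome are Brca_14, Brca_42, P53_1573, P53_8546, P53_2979, P53_5809, C3TAg_8_RPT, H2NA and Haras_An5_3RPT, and the rows of Brcap53_682, Brca_54 and Wnt_4635 change colour within the chromosome.

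By this count, 4 of 5 BRCA1-/-;p53+/- tumors had lost at least 10% of the chromosome (80.0%, exact Clopper-Pearson 95% interval 28.4 to 99.5%), and so had 4 of 6 p53-/- tumors (66.7%, 22.3 to 95.7%). The C3(1)-Tag, MMTV-Her2/neu and MMTV-HRas models each had 1 of 5 (interval 0.505 to 71.6%). MMTV-PyMT had 0 of 9 (upper limit 33.6%), and MMTV-Myc and MMTV-Wnt1 each 0 of 5 (upper limit 52.2%). Against 7 of 40 tumors of all other models (17.5%), the 4 of 5 gave a two-sided Fisher's exact p of 0.00956, a p that describes a difference already known when the model was singled out. With 3 of 5 tumors, as with extreme probes held in, the exact p was 0.0647, and with the authors' intervals in place of the segments 2 of 5 were lost (exact p = 0.0874). In all models together 11 of 45 tumors had a loss, and 4 would with the dyes as labelled. By the same count chromosome 10 was lost in 16 tumors and chromosome 7 in 13, and chromosomes 11 and 18 were also lost in 4 of the 5 BRCA1-/-;p53+/- tumors, so the count of 4 is shared with other chromosomes.

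Gains were rarer, in 4 of 45 tumors. Hras_An1_3 was gained over 100% of the probes, with a mean of 0.22. Brca_54 was gained over 40.4%, Wnt_4635 over 25.2% and Brcap53_682 over 16.5%, most of it in the proximal part. In Brca_54 short segments of 17, 6, 5 and 8 probes beyond its break are included, and in Brcap53_682 one of 5 probes inside its distal loss. No tumor of the p53-/-, C3(1)-Tag, MMTV-Her2/neu, MMTV-PyMT or MMTV-Myc models reached 10%. The deposited intervals differ from the segments in single tumors. They leave Brca_14, Brca_54, P53_1573, P53_8546 and P53_5809 with 0% lost and C3TAg_8_RPT with 1.2%. They give P53_2979 99.3% lost, and C3TAg_5RPT 100% and Brcap53_682 0% gained.

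Over the whole chromosome the BRCA1-/-;p53+/- tumors did not stand apart. Their mean log2 ratio was 0.036 in Brcap53_503, -0.189 in Brcap53_682, -0.28 in Brca_14, -0.365 in Brca_42 and 0.055 in Brca_54, so that 2 of 5 tumors were above 0. The group mean was -0.149 ± 0.188 (SD, n = 5) against -0.054 over the other 40 tumors. The difference of -0.095 had a two-sided exact permutation p of 0.117 (adjusted p = 0.316 over the 8 models). Without Brcap53_503 the difference was -0.141 (exact permutation p = 0.0379), and without Brca_54 it was -0.146 (exact permutation p = 0.0308). None of the other 7 models passed 0.05 after adjustment either, with differences from -0.084 in p53-/- to 0.086 in MMTV-Wnt1. Set against each model in turn, BRCA1-/-;p53+/- came closest to a difference against MMTV-PyMT (-0.143, exact permutation p = 0.0325, adjusted p = 0.227 over 7).

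The chromosome was then divided at 30, 60 and 90 Mb. In the window up to 30 Mb, Brcap53_503, Brcap53_682, Brca_14, Brca_42 and Brca_54 had mean log2 ratios of 0.116, 0.159, -0.289, -0.327 and 0.363. The spread there, an SD of 0.301, was the widest of any model, and the difference from the other models was 0.068 (adjusted p = 0.467 over 4 windows, exact permutation test). From 30 to 60 Mb, the same tumors had 0.105, 0.25, -0.276, -0.363 and 0.318, and the difference was 0.032 (adjusted p = 0.675, exact permutation test). In both windows 3 tumors were above and 2 below 0.

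From 60 to 90 Mb the values were 0.006, -0.327, -0.251, -0.359 and -0.115. The mean of -0.209 ± 0.153 (SD, n = 5) was lower than the -0.034 of the other tumors by 0.175 (exact permutation p = 0.00451, adjusted p = 0.018). From 90 Mb to the end they were -0.017, -0.502, -0.313, -0.394 and -0.083. The mean of -0.262 ± 0.206 (SD, n = 5) stood against -0.092, a difference of -0.17 (exact permutation p = 0.0106, adjusted p = 0.0211). In the last window 5 of 5 tumors were below 0 and in the one before it 4 of 5. These values belong to tumors whose losses were known when the model was singled out, so the p-values describe that difference. Neither call held without Brcap53_682, without Brca_14 or without Brca_42. For the other 7 models no window passed after adjustment over 28 tests, the lowest exact permutation p being 0.0329 for p53-/- up to 30 Mb (difference -0.146, adjusted p = 0.567).

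**Figure D2:**
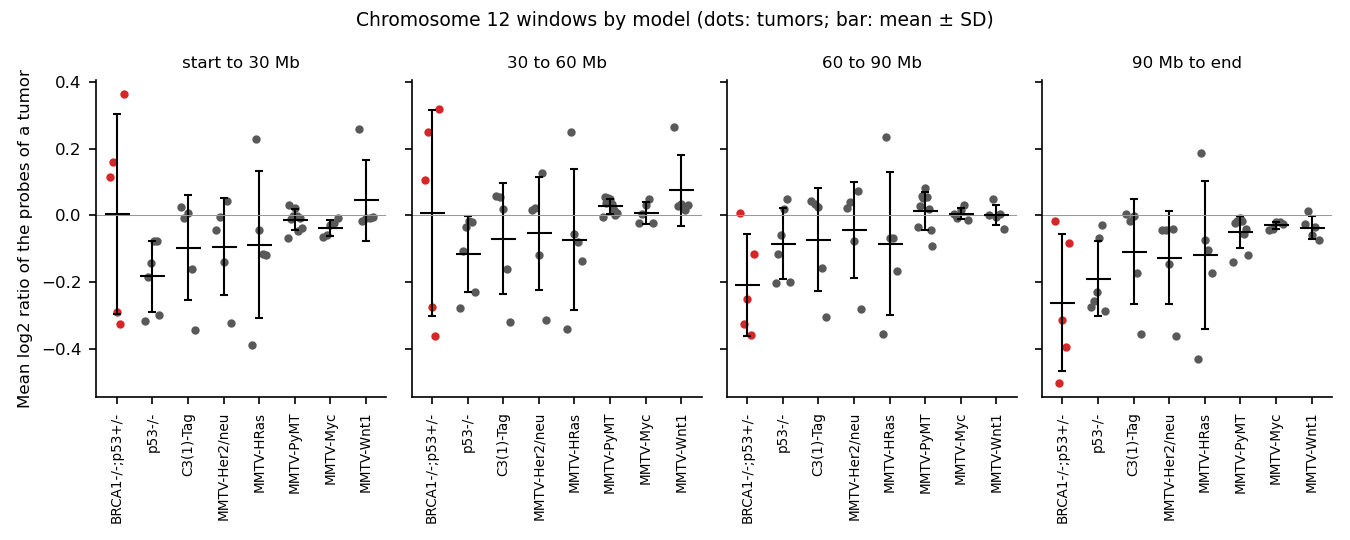
Mean log2 ratio (y axis) of the probes of a tumor in 4 windows of chromosome 12, by model (x axis). Dots are tumors, horizontal bars the mean and whiskers the SD, with BRCA1-/-;p53+/- in red. In the first pair of windows the red dots lie on both sides of 0, from -0.363 to 0.363, and beyond 60 Mb they lie between -0.502 and 0.006.

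The difference between the distal part (beyond 60 Mb) and the proximal part (up to 60 Mb) of the same chromosome does not depend on where an array is centred. It was taken after the windows had been seen, so its p describes that pattern. It was -0.114 in Brcap53_503, -0.619 in Brcap53_682, 0.003 in Brca_14, -0.027 in Brca_42 and -0.438 in Brca_54. The tumors thus fall into 2 with a large step, 1 with a small step and 2 with none. The mean was -0.239 ± 0.275 (SD, n = 5) against -0.019 in the other tumors, a difference of -0.22 (exact permutation p = 0.00131, adjusted p = 0.0105 over the 8 models). Leaving out each tumor in turn gave differences from -0.281 to -0.125, all with an exact permutation p under 0.05. Among the other models, the lowest value belonged to Wnt_4635 (-0.274), whose proximal part was gained. The p53-/- tumors lay between -0.056 and 0.06, so the losses in this model had no such step at 60 Mb.

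Breakpoints of the BRCA1-/-;p53+/- tumors were placed after extreme single probes had been held in. In Brcap53_682 a segment of 602 probes with a mean of 0.217 gave way to one of 867 probes with a mean of -0.487, between positions 71308371 and 71375177, where the next probe is in Txndc1. In Brca_54 the step from 0.338 to -0.175 fell in a probe gap, between 68142039 and 70051809. The break positions of these tumors thus lie between 1.26 and 3.23 Mb apart. The lower limit rests on the last probe before the break of Brcap53_682, at 71308312. It is one of the isolated probes described below, with values from -0.63 to 3.55 in this model. Brca_54 changed again, from -0.175 to 0.171, between 112843736 and 112863009 (AK054515 and A730018C14Rik). Before extreme probes were held in, Brca_14, Brca_42, P53_1573, P53_5817, P53_5851 and P53_8546 also had a junction between these probes, followed by a short segment. Brcap53_503 had a shallow step from 0.139 to -0.013 between 46311852 and 46342355, below the 0.2 that was required of a breakpoint. Brca_14 was a single segment. Brca_42 was broken only by 15 probes between 112863009 and 113264068, with a median of -0.017, an SD of 1.25 and values from -0.71 to 3.58, between flanks at -0.384 and -0.451.

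At least 3 BRCA1-/-;p53+/- tumors had lost 47.5 Mb in common, in 15 runs of probes. The first run started at 70051809, and the last, from Cdca4 at 113268763, reached the end of the covered chromosome at 119905084. At least 4 tumors had lost 6.87 Mb. Most of that lay between Psma3, a proteasome subunit gene at 71904407, and 77668691. A further 1.43 Mb of only 5 probes lay between 115047331 and 116475531, in the interval from Tmem121 to Zfp386 taken up at the end. The former needs the lost segment of 137 probes in Brca_54, and the latter a segment of 5 probes in Brcap53_503 (mean -1.40, median -1.03). With extreme probes held in, Brca_54 was not called lost in the former and Brcap53_503 not in the latter, so each was then lost in 3 tumors. Without Brca_14 or without Brca_42 the length lost in at least 3 tumors was 6.87 Mb, and without Brcap53_682 it was 8.17 Mb.

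In a limma fit on all 2057 autosomal 1 Mb bins, 13 of the 93 bins on chromosome 12 (14%) were lower in BRCA1-/-;p53+/- than in the average of the 7 remaining models (adjusted p under 0.05), against 2.09% of all bins in that direction. All 13 lay between 72000001 and 104000000. The losses of these tumors were known when the model was singled out, so this share and the adjusted p-values describe that difference. The lowest adjusted p on the chromosome, 0.021, belonged to the bins at 75000001 (mean -0.414 against 0.045, difference -0.459 ± 0.1 SE, 5 probes) and 78000001 (-0.278 against 0.093, difference -0.371 ± 0.082 SE, 3 probes). Denser bins gave smaller differences, as at 74000001, with 26 probes (-0.333 against -0.055, difference -0.277 ± 0.064 SE, limma adjusted p = 0.0265), which holds the probes of Hif1a. Only 1 bin was higher (1.08%, against 0.389% of all bins), at 38000001 with 3 probes (0.388 against -0.058, limma adjusted p = 0.0265). The count of 13 depended on single tumors. It was 27 without Brcap53_503, 2 without Brcap53_682, 1 without Brca_14, 0 without Brca_42 (limma) and 1 without Brca_54.

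The p53-/- tumors also had 13 bins lower (14%, against 4.81% of all bins) and 1 higher (1.08%, against 2.28%). Their lower bins were spread from 7000001 to 108000000 and lay on both sides of 60 Mb. The bin at 17000001 was lower by 0.314 ± 0.084 SE (mean -0.377 against -0.063, limma adjusted p = 0.0165), and the bin at 107000001 by 0.339 ± 0.094 SE (-0.537 against -0.197, limma adjusted p = 0.0193). The higher bin, at 114000001, held 3 probes (0.568 against 0.06, limma adjusted p = 0.00421). Of all calls on chromosome 12 outside BRCA1-/-;p53+/-, 14 in number, p53-/- had every one. Without P53_2979 that total was 3, without P53_5809 it was 2, without P53_8546 it was 4, and without P53_5851 it was 24.

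The other 6 models had 0 bins called on chromosome 12 by limma. At an unadjusted p under 0.05, MMTV-Wnt1 had 18 bins higher, MMTV-PyMT 8 higher, MMTV-Myc 3 higher and C3(1)-Tag 2 lower, and MMTV-Her2/neu and MMTV-HRas had 0. In MMTV-HRas, 13.9% of all bins were called higher and 3.99% lower, so its calls fell on other chromosomes. In MMTV-PyMT, 2.53% of all bins were called higher and 0.194% lower. Of all bins, 0.438% were called higher in MMTV-Myc and 0.0486% in MMTV-Wnt1.

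**Figure D3:**
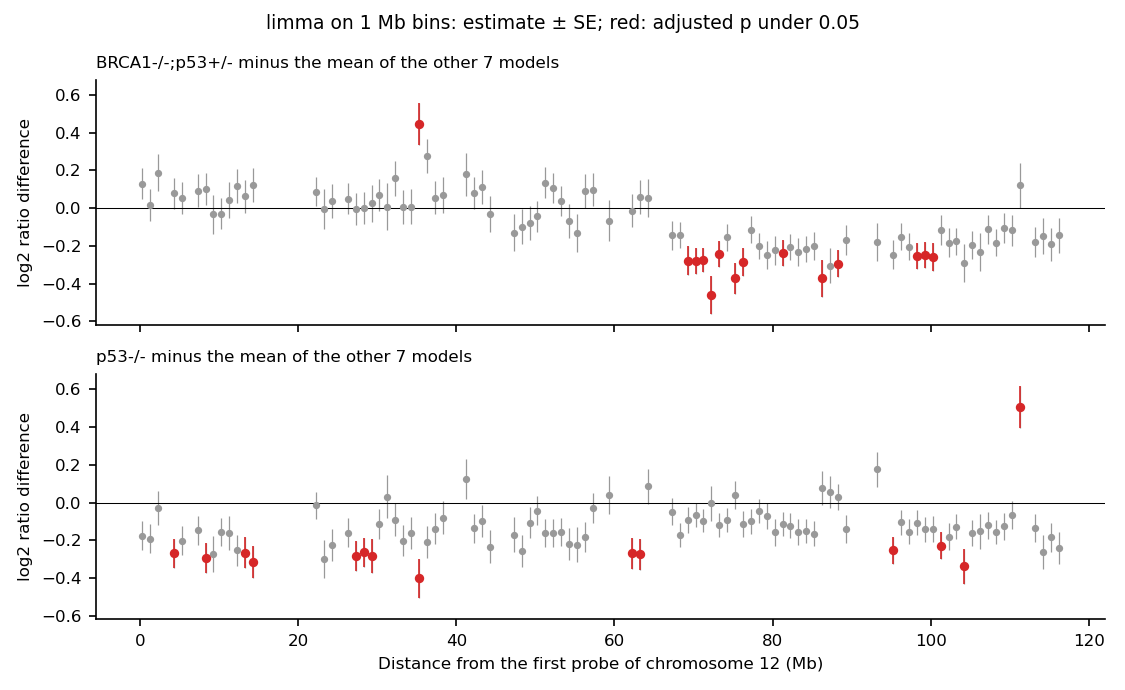
Difference in log2 ratio (y axis, estimate ± SE from limma) of 1 Mb bins along chromosome 12 (x axis, Mb from the first probe) for BRCA1-/-;p53+/- (upper panel) and p53-/- (lower panel), each against the mean of the other 7 models. Red bins have an adjusted p under 0.05. The 13 lower bins of the upper panel lie in the distal part, and those of the lower panel along the whole chromosome.

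Chromosome-wide loss in p53-/- differed in extent between tumors. The share of probes lost was 90.6% in P53_1573, 76.6% in P53_8546, 31.0% in P53_2979, 19.9% in P53_5809, 1.0% in P53_5851 and 0.7% in P53_5817. With extreme probes held in, the first 4 of these shares were 100%, 100%, 20.2% and 19.9%, and the count stayed at 4 of 6. The chromosome means were -0.256, -0.248, -0.166, -0.118, -0.008 and -0.029 in the same order. P53_2979 and P53_5809 had the noisier arrays, with probe SDs of 0.448 and 0.475. The mean over the model was -0.137 ± 0.106 (SD, n = 6) against -0.054 in the other tumors (exact permutation p = 0.138, adjusted p = 0.316). Within the 2 scan days that p53-/- shared with other models, the difference was -0.142 (exact permutation p = 0.00384, adjusted p = 0.0269 over 7 models). The p53-/- arrays shared no slide with another model, so model and slide cannot be told apart for them. At least 3 p53-/- tumors had lost 29.0 Mb in common, in 6 runs. The longest were from 3238250 to 16824948 and from 103293236 to 112843736. With extreme probes held in, P53_2979 was at -0.149 and P53_5809 at -0.091 by their means in the segment that holds the first of these, short of the threshold, while the medians of the same segments were -0.265 and -0.206. The call of these 2 tumors there thus depends on whether a mean or a median is used.

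In C3TAg_8_RPT, H2NA and Haras_An5_3RPT the losses covered 100%, 99.3% and 100% of the probes, with means of -0.33, -0.319 and -0.381. The distal minus proximal differences of 0.002, -0.002 and -0.029 leave no step at 60 Mb. These tumors stood alone in their models. The other 4 C3(1)-Tag tumors had means from -0.164 to 0.032, the other 4 MMTV-Her2/neu tumors from -0.116 to 0.046 and the other 4 MMTV-HRas tumors from -0.155 to 0.223. The chromosome means of the MMTV-Myc tumors lay from -0.025 to 0.011 and those of the MMTV-PyMT tumors from -0.072 to 0.039. PyMt3 changed level within the chromosome, from 0.15 to -0.058 at Atp5s.

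With extreme probes held in, the lowest segment of any tumor lay inside the loss of C3TAg_8_RPT. Over 18 probes and 0.983 Mb, from Evl (109056265) to Rtl1 (110039596), the mean log2 ratio was -1.24 with a probe SD of 0.23, between -1.68 and -0.92. The chromosome around it was at -0.31 on either side. In the other 44 tumors the same stretch had a median of -0.079, from -0.60 to 0.23, so C3TAg_8_RPT lay far below every other tumor. The left end falls between 2 probes of Evl, which codes for an actin regulator of the Ena/VASP family, at -0.14 (109004346) and -1.64 (109056265). The right end falls between the probe of Rtl1 (-1.68) and the next one, named AF498301 (-0.26, at 110080677). Inside lie Degs2 (-0.92 and -1.03), which codes for a sphingolipid desaturase, and Yy1 (-1.10 and -1.19), a zinc finger transcription factor gene. Wars, the gene of a tryptophanyl-tRNA synthetase, had -1.45 and -1.13. Dlk1, which codes for a Notch-related membrane protein and is expressed from the paternal copy, had -1.43. Dio3, an inactivating thyroid hormone deiodinase gene at the far end of the imprinted domain, lay outside.

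Rtl1 is a retrotransposon-derived gene, and on the opposite strand a cluster of maternally expressed miRNAs pairs with its transcript. In RefSeq (GRCm38.p6), 28 mature miRNAs of 15 genes lie within the span of Rtl1, and 74 of 40 genes lie beyond Rian up to Mirg, out of 167 mature miRNAs on the chromosome. Probes are placed in mm8, so the miRNAs were set against them by name and order only. The break lies between the probe of Rtl1 and the next one. For miRNAs within the span of Rtl1 the array therefore does not show on which side they fall. In gene order, those beyond Rian lie distal to Rtl1. On that side the segment that starts at AF498301 (-0.26) was back at -0.31, and the distance of these miRNAs from the break was not measured. The following mature sequences are shown because the distal end of this deletion falls in or beside the cluster of Rtl1, or because they lie further along the same domain. The seed (bases 2 to 8), which decides the choice of target, is in capitals. The first 5 come from the span of Rtl1:
miR-431-5p: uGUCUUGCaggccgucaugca
miR-433-3p: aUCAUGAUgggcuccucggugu
miR-127-3p: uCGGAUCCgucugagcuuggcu
miR-434-3p: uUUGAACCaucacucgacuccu
miR-136-5p: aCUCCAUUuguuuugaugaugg
The next come from the part beyond Rian:
miR-379-5p: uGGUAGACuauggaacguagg
miR-410-3p: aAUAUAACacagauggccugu
The 7 miRNAs have 7 different seeds, so no seed is shared among those shown.

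In Wnt_4635 the proximal part was gained in 3 levels. Up to 31664827 the mean was 0.264 over 255 probes. From 31792384 to 32761872 it was 0.993 over 25 probes (probe SD 0.23, from 0.44 to 1.39). From there to 41525156 it was 0.514 over 97 probes, and beyond Immp2l it was -0.011. In the other 44 tumors the 25 probes had a median of -0.02, from -0.57 to 0.33. The highest stretch starts in AK146406 and ends between 2 probes of Pik3cg (0.81 and 0.64), which codes for the catalytic subunit p110-gamma of a phosphoinositide 3-kinase. Lamb1-1, a laminin beta chain gene, had 1.20 and 0.94. Cbll1, which codes for the E-cadherin ubiquitin ligase Hakai, had 1.13 and 1.14, and Slc26a3, a chloride transporter gene, had 1.13 and 1.32. Towards the right end the values fell, to 0.65 and 0.63 in Hbp1, a transcriptional repressor gene, and to 0.78 and 0.88 in Prkar2b, a regulatory subunit gene of protein kinase A. The other 4 MMTV-Wnt1 tumors had no gain there.

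**Figure D4:**
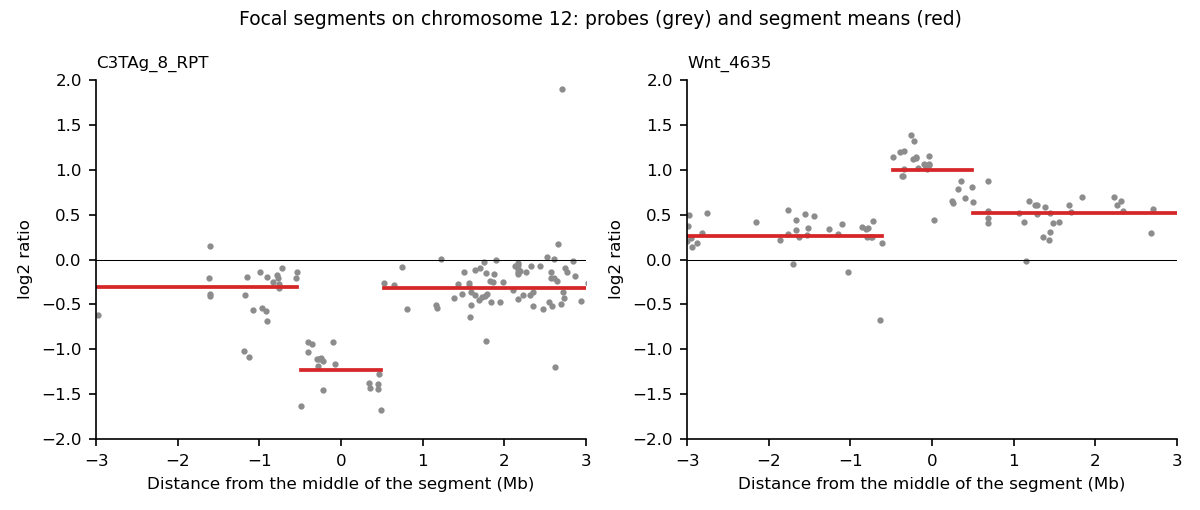
Log2 ratio (y axis) of probes (grey) within 3 Mb of the middle of a short segment (x axis, Mb) in C3TAg_8_RPT (left) and Wnt_4635 (right), with segment means in red. The 18 probes of the left segment lie at a mean near -1.24 between flanks at -0.31, and the 25 probes of the right segment at 0.993 between 0.264 and 0.514.

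Over all tumors, junctions between segments whose means differ by at least 0.2 numbered 219. Only 13 of them separated 2 segments of at least 20 probes. Of 104 short altered segments, 56 kept a median past 0.2 and 48 did not. With extreme probes held in, there were 19 junctions of at least 0.2, in 11 tumors, and 27 of the 45 tumors were a single segment. The 19 came to 5 in BRCA1-/-;p53+/-, 5 in p53-/-, 3 in MMTV-Wnt1 (all in Wnt_4635), 2 each in C3(1)-Tag and MMTV-Her2/neu, 1 each in MMTV-HRas and MMTV-PyMT, and 0 in MMTV-Myc.

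Several junctions came back at the same probes in tumors of different models. H2N64 and Haras_An5_3RPT changed level between 103825195 and 103835353 (Ddx24 and D12Ertd647e) and again between 113611977 and 113636191 (4930427A07Rik and Tmem121). The 229 probes in between were lower than the 10 Mb of probes before them in 40 of 45 tumors, with a median difference of -0.046 (from -0.204 to 0.08). The 5 tumors in which they were higher were Brcap53_503 (0.023), Brcap53_682 (0.01), Brca_54 (0.08), Myc_04004021 (0.014) and Hras_An3_3 (0.034), so that 3 of the 5 belonged to BRCA1-/-;p53+/-. In P53_5817 a segment of 23 probes from 67314702 to 70273388 had a mean of 0.359, and in P53_5851 one of 13 probes from 70051809 to 70211880 had 0.479. Over these 13 probes both tumors stood above their flanks by 0.425 and 0.497, and the other 43 tumors between -0.479 and 0.237. The -0.479 belongs to Myc_04004021, whose direction is not settled, and turned it would be 0.479, within the range of the p53-/- pair. The stretch adjoins the gap in which Brca_54 breaks.

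Genes were grouped into lists chosen with earlier results of these data known, and they are described by the segments they lie in. Of all 1498 probes, 880 lay in segments lost in at least 3 BRCA1-/-;p53+/- tumors and 140 in 4. Of the 9 DNA repair and replication genes with a probe, 6 were lost in at least 3 of these tumors. Of the 9 genes listed as tumor suppressing or growth-restraining, 3 were, and of the 26 growth-promoting and signalling genes 12 were. All 3 listed genes of the imprinted cluster with a probe under their name and all 11 of the serpin cluster were. The counts follow position, since 7, 4, 12, 3 and 11 genes of these lists lie beyond 60 Mb.

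Vrk1, a nuclear kinase gene at 106412460, lay in a lost segment in 11 of 45 tumors. Its values in Brcap53_503, Brcap53_682, Brca_14, Brca_42 and Brca_54 were 0.15, -0.71, -0.92, -1.13 and -0.30. The group mean of -0.583 was above those of p53-/- (-0.884) and MMTV-Her2/neu (-0.914). Pole2, which codes for a subunit of DNA polymerase epsilon, lies at 70122839 in front of the break of Brcap53_682 and had 0.18 there, against -0.63 in Brca_14 and -0.86 in Brca_42. Smc6, a gene of the SMC5/6 complex near the proximal end, had 0.14, 0.12, -0.14, -0.64 and -0.26.

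The genes in the stretch lost in 4 of these 5 tumors, or in 3 with extreme probes held in, included Hif1a and Esr2 of the growth-promoting list and Mnat1, a subunit gene of the CDK-activating kinase. Hif1a, the oxygen-regulated transcription factor gene, at 74834081, had -0.01, -0.37, -0.73, -0.50 and -0.55 (mean -0.435), against group means from -0.011 to 0.28 in the other models. Esr2, the estrogen receptor beta gene, had 0.09, -0.41, 0.19, -0.02 and -0.12, and Mnat1 -0.06, -0.30, 0.06, -0.14 and -0.27. Values at or below -0.2 were found in 4 of the 5 tumors for Hif1a, in 2 for Mnat1 and in 1 for Esr2.

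The proximal genes did not all follow the sign of their segments. Ncoa1, a steroid receptor coactivator gene, had 0.14, 0.31, -0.58, -0.64 and 0.43. Dnmt3a, a de novo DNA methyltransferase gene with 6 probes, had 0.14, -0.05, -0.39, -0.46 and 0.43. Trib2, a pseudokinase gene, and Greb1, an estrogen-induced gene, were each positive in 3 and negative in 2 tumors. Asxl2, which codes for a Polycomb-associated protein, had no value in Brcap53_682 and 0.56, 0.25, -0.15 and 0.57 in the others from 1 probe. Dnmt3a in Brcap53_682 and Asxl2 in Brca_14 thus had the opposite sign to their segments. Each of these genes was lost in 2 and gained in 1 of the 5 tumors by its segment.

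In the distal part, Dicer1, which codes for the nuclease that matures miRNAs, had 0.07, -0.44, -0.42, -0.61 and -0.18 over 4 probes, and Brcap53_503 was the only one above 0. Dlk1 had -0.17, -0.65, -0.44, -0.78 and -0.29, and Rtl1 -0.21, -0.54, -0.56, -0.48 and -0.53. Over the 44 tumors other than C3TAg_8_RPT the median was -0.27 for each of these probes, so they read low in many other tumors too. Dio3 had -0.14, -0.17, -0.22, -0.29 and 0.11. Among the serpins, Serpina10, the gene of a coagulation factor inhibitor, had -0.36, -0.60, -0.67, -0.55 and -0.45. Serpina6, the gene of corticosteroid-binding globulin, had 0.11, -0.54, -0.35, -0.74 and 0.07. Serpina1f had 0.20, -0.76, -0.31, -0.66 and -0.41, and Serpina11 0.56, -0.49, -0.01, -0.54 and 0.18. Single probes therefore varied within a tumor widely, and segments and bins average over them.

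The bin whose median was past 0.2 in size in the most tumors was the one at 34000001, in 26 of 45. It was above 0.2 in 19 tumors of several models and below -0.2 in 7 (median 0.149, from -0.46 to 0.762). It held 7 probes, among them 2 of the histone deacetylase gene Hdac9 and 1 of Twist1, and the one with the highest mean over the models (0.27) has no gene name.

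Single probes could stand far from their neighbours in every tumor of a model. A probe was called isolated where the mean of a model lay at least 0.8 from the median of the 5 probes on either side, with all its tumors on that side. BRCA1-/-;p53+/- had 30 such probes and p53-/- 53, while the other 6 models had between 0 and 4. On chromosome 12 this was 2.003% of the probes in BRCA1-/-;p53+/- and 3.54% in p53-/-, and over all 40660 autosomal probes 0.981% and 2.89%, so such probes were found throughout the genome. Over the autosomes the share was 0.411% in MMTV-Her2/neu, 0.128% in MMTV-Myc, 0.0935% in MMTV-Wnt1, 0.0689% in MMTV-HRas, 0.0664% in MMTV-PyMT and 0.0566% in C3(1)-Tag. The 11 probes isolated in both were 36.7% of those of BRCA1-/-;p53+/- and 20.8% of those of p53-/-. The probe of BC020022, at 60133446, averaged 3.94 (from 3.35 to 4.78) in BRCA1-/-;p53+/- and 4.73 (from 4.45 to 5.18) in p53-/-, against -0.73 to 0.87 in the other models. The probe of Zfyve26 at 80160760 averaged 3.57 and 3.55 in these models (from -0.38 to 6.47 in p53-/-) and -0.60 to 0.60 elsewhere. An unnamed probe at 41525097 averaged 3.84 in BRCA1-/-;p53+/- and 2.58 in p53-/- (from -1.19 to 5.37), and the highest MMTV-Wnt1 tumor had 3.06. Another at 71308312 averaged 3.26 in p53-/-, 1.65 in BRCA1-/-;p53+/-, 1.27 in MMTV-PyMT (up to 3.82) and 0.98 in MMTV-Her2/neu (up to 3.10). The probe of M95940 at 116400164 went the other way, with -3.67 in p53-/- (from -5.33 to -0.41), -1.6 in BRCA1-/-;p53+/- and -0.17 to 0.09 elsewhere. With the probes isolated in any model left out, the distal minus proximal difference of BRCA1-/-;p53+/- was -0.24 (exact permutation p = 0.000791), close to the -0.22 with them.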

How the data were processed

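The authors deposited the output of Agilent Feature Extraction (9.5.1.1 in the file headers, 10.7 in the labels) for each array: processed intensity per dye, after background subtraction and dye normalization (1 of 2 method codes, on 39 and 6 arrays), and a log10 ratio per spot (Cy5 divided by Cy3). A table of the authors' aberrant intervals (detection threshold 6) was deposited too, and its mean log2 ratio per tumor served as an alternative. Their p-value column and their per-model interval tables were not used. The aligner of the probes to mm8 is not given in the sources used here.

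Control spots and outlier spots were left out, spots of a probe were averaged, and ratios were turned to Cy3 over Cy5 on the log2 scale and centred on each array's autosomal median. Up to 29 members had no value in an array. Segments came from circular binary segmentation (split statistic over 6, at least 5 probes; Python 3.11.15, numpy 2.4.6, numba 0.67.0). Bins of 1 Mb with at least 3 probes were fitted with limma 3.58.1 (R 4.3.3), all 45 tumors sharing 1 estimate of the spread, with Benjamini-Hochberg adjustment. Single values were compared by two-sided exact permutation tests over tumors. Tumors of a model were its replicates, and nothing in the labels says that tumors came from different animals, so p-values measure the spread between these arrays. On simulated chromosomes with a noise SD of 0.25, the segmentation recovered 40 of 40 planted changes of 18 probes and -0.9, and at a noise SD of 0.45 it recovered 12 of 40 changes of 100 probes and -0.3. In a simulation of the BRCA1-/-;p53+/- fit over 2057 bins, 71 of 100 bins lowered by -0.3 and 97 of 100 lowered by -0.6 were called, with 11 false calls.

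The members, gene lists, tests and the model singled out were chosen with earlier results of these data known. Genes named were, per list, up to 4 with a probe that lay in altered segments in the most tumors, the genes beside breakpoints and region ends, in the bin most often altered the gene whose probe averaged furthest from 0, and the 5 most isolated probes. Listed genes with no probe under their name were Mlh3, Zfp36l1, Numb, Gtl2/Meg3, Id2, Adam17, Sos2, Begain, Rian and Mirg. The genes of the part lost in 4 BRCA1-/-;p53+/- tumors and those inside the short segments of C3TAg_8_RPT and Wnt_4635 were named after their values were seen. Values of some genes that the rule names are not reported here. Alternatives covered the background correction, within-array loess, centring, direction, thresholds, bin size, slides, scan days and each tumor left out. The number of arrays and the signal limit the precision: the median signal was 2.09 to 14.4 times the background in Cy5 and 3.67 to 16.7 times in Cy3, and 96.6 to 99.8% of probes were well above it.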

Additional observations from a re-analysis of the deposited data

Results flagged for a closer look

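In MMTV-Wnt1, Wnt_4635 stood apart from the other 4 tumors in the window up to 30 Mb (0.26, against -0.017 to -0.004) and in the window from 30 to 60 Mb (0.264, against 0.016 to 0.035). Each value was marked because its gap to the nearest of the other tumors exceeded Dixon's 95% limit. Of 48 groups tested in this way 2 were marked, and chance alone marks about 1 in 20 groups. Both values belong to the gain that ends near Immp2l.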

How the results depend on the processing

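Some counts moved with the way ratios were made. With normexp background correction, 2 of 5 BRCA1-/-;p53+/- tumors were lost (exact Fisher p = 0.258), 2 tumors of all models were gained, 1.428 Mb was lost in at least 3 tumors, 33 junctions and 1 lower bin were found, 0 windows passed, and 1 other model differed in its chromosome mean. Loess gave 3 lost tumors, 8 lower bins in BRCA1-/-;p53+/- and 7 bins called in other models. Probes well above background, a threshold of 0.3, segments of at least 3 probes and extreme probes held in each gave 3 lost tumors (exact Fisher p = 0.0647). A threshold of 0.3, like a required share of 50%, left 1 gained tumor. A running median of 11 probes gave 4 lost tumors in BRCA1-/-;p53+/- and 19 in all (exact Fisher p = 0.146), and the deposited intervals 2 and 5 (exact Fisher p = 0.0874), with 0 Mb in common to 3. With the dyes as labelled the chromosome mean differed by 0.095, the 4 windows by -0.068, -0.032, 0.175 and 0.17, and distal minus proximal by 0.22. Lost tumors were then 2 in BRCA1-/-;p53+/- (exact Fisher p = 0.0551) and 4 in all, gained tumors 11, the common length 3.207 Mb and the lower bins 1. The median of the probes gave a chromosome difference of -0.135 (exact permutation p = 0.0465).

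Junctions numbered 332 and 100 at a split statistic over 5 and over 8, 127 and 66 with at least 10 and 20 probes, and 19 with extreme probes held in. At least 2 tumors shared 116.274 Mb and at least 4 shared 6.867 Mb. Density peak centring gave 3 lower bins in BRCA1-/-;p53+/- and 5 calls elsewhere, 2 Mb bins 5 and 5, 0.5 Mb bins 24 elsewhere, and leaving out C3TAg_5RPT, C3TAg_7RPT, H2N53 and H2N61 7 and 9. Within scan days 1 other model, p53-/-, differed in its chromosome mean. Holding extreme probes in, segments of at least 20 probes, leaving out isolated probes, turning Myc_04004021 or PyMT_11567, PyMT_11570 and Wnt_4679, and the distal minus proximal comparison were chosen after seeing the data.

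Leaving out each tumor gave chromosome differences of -0.146 to -0.04, windows of -0.021 to 0.151, -0.046 to 0.124, -0.229 to -0.137 and -0.231 to -0.11 in order of position (30 to 60 Mb was -0.029 without Brcap53_682, and both lowest proximal values came without Brca_54), 0 to 2 windows passed, common lengths of 6.867 to 47.482 Mb, 0 to 27 lower bins in BRCA1-/-;p53+/- and 2 to 24 calls elsewhere. Distal minus proximal kept its direction and its call under 15 of 16 alternatives, the labelled dyes being the exception. The causes were not tested. No paired analysis was possible because the labels carry no replicate numbers that models share. Of the other models 5 could be compared within slides, where MMTV-Her2/neu differed by -0.122 (exact permutation p = 0.0278, adjusted p = 0.139). The planned comparison of the heavy chain locus was not run, as no member carries such a name, nor could BRCA1-/-;p53+/- be compared within a slide or scan day. Probe noise and gaps limit what short or shallow changes can be seen.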
